A study of Mus musculus with 6 samples.

Results

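Open chromatin was mapped around Trp53, the gene for the transcription factor p53, in thymus of mice carrying altered p53 alleles. The interval ran from 59580000 to 79590000 on chromosome 11 (GRCm38), 10 Mb on each side of the gene. The authors deposited 1 list of ATAC-seq peak summits for each of 6 libraries. ATAC-seq is an assay in which a transposase cuts accessible DNA, so that a summit marks the point of strongest signal in an accessible stretch. Every summit in the interval was extended by 250 bp on each side, and windows that overlapped were merged into regions across libraries. This gave 1104 regions, out of 5475 on chromosome 11 and 73702 on chromosomes 1 to 19 and X. A region was present in a library that had a summit in it.

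The libraries came from thymus taken at 4 weeks of age from mice with germline p53 alterations. Their background was a 50% BALB/C and 50% C57BL6 mixture. In 3 libraries the genotype was p53 AD/-, with 1 copy of an allele named AD, which the series calls dimeric, over a null allele. In the other 3 it was p53 -/-, here called null. All 6 libraries therefore share at least 1 null allele, and no library with wild-type p53 was analysed here. Replicates were numbered in accession order, and the labels do not say that the libraries came from different mice. P-values measure the spread between these libraries, which may be technical. They do not measure how the interval ranks among other stretches of the genome, since all 6 libraries cover the same loci.

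p53 is a stress-activated transcription factor that binds DNA as a tetramer and restrains the growth of damaged cells. Mice without it often develop lymphoma that starts in the thymus, an organ filled mostly with developing T cells. The mouse chromosome that carries Trp53 holds many housekeeping genes close together, and also gene families used in few tissues, among them olfactory receptors and skeletal muscle myosins.

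The tissue label was checked at start sites from a RefSeq table. A summit lay within 1 kb of a start in all 6 libraries for 10 of 10 thymocyte marker genes that had a tabled start. The B cell markers Cd79a and Pax5 had none in any library, and neither did the myeloid markers Lyz2 and Cd68, while the myeloid marker Itgam had one in some libraries. The thymic epithelium markers Foxn1, Psmb11, Krt5 and Krt8 also had none, but Epcam, also among the 5 genes of that list, had one in all 6 libraries. Gata1 and Klf1, 2 of 3 erythroid markers, had none, but the erythroid marker Epor had a summit in all 6 libraries. So did 1 of 1 endothelial markers with a tabled start. The part of other cell types in the results was not tested. The lists held 44496 to 60160 summits in all, and AD/- library 3 was the shortest. Read depth is unknown, because the lists give no read counts. Each summit has a score, read here as the −log10 of its q-value. It is used as a percentile, its rank among all scores of that library (100 is the highest). The exception is 1 alternative with a score of at least 5. Raw scores differ in scale between libraries, so that cutoff does not fall at the same rank in each. At the Eif5a region, for instance, null library 2 had 1903 and AD/- library 3 had 425.3, with percentiles of 99.86 and 99.8.

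The sequences around the starts of Trp53, its neighbour Wrap53, Eif5a and Kctd11 are shown first, since the results turn on where summits fall relative to them. Each is 300 bases from RefSeq on GRCm38.p6, written 5′ to 3′ in the direction of the gene, from 250 bases before a start site to 50 after it. The Wrap53 promoter shown (chr11:69579200-69579499, minus strand) is that of 1 of its tabled starts. It has in capitals the 57 bases from the lowest to the highest of the 6 summit positions. Wrap53 is the neighbour of Trp53 on the opposite strand and encodes a protein of telomerase and Cajal bodies. The Trp53 promoter (chr11:69580109-69580408, plus strand) has in capitals a TATA match (TATAAA, on the other strand), a CCAAT match (on the other strand) and an E-box match (CACGTG). The Eif5a promoter (chr11:69921337-69921636, minus strand) has in capitals the 75 bases from the lowest to the highest summit. The Kctd11 promoter (chr11:69880936-69881235, minus strand) has in capitals 2 GC box matches (GGGCGG). Of all 21045 tabled promoters, 12.7% hold the TATA letters on either strand, 38.5% the CCAAT letters, 7.91% the E-box letters and 46.7% the GC box letters.
Wrap53: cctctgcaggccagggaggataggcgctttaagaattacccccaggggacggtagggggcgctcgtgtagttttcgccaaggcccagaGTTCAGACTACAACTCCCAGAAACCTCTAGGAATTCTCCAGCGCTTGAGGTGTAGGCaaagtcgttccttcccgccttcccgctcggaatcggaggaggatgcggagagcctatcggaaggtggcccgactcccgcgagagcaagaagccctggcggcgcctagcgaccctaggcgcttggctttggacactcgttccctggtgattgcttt
Trp53: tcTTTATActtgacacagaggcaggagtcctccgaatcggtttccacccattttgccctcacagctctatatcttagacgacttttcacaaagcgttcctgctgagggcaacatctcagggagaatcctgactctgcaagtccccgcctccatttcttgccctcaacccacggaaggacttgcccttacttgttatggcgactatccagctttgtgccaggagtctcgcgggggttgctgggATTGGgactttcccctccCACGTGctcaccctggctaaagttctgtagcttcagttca
Eif5a: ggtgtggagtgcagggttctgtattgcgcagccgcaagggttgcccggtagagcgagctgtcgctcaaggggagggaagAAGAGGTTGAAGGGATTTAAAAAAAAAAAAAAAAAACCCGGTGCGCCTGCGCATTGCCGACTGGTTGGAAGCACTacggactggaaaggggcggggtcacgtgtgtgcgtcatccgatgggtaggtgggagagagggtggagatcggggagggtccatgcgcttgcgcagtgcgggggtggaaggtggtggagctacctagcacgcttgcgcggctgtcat
Kctd11: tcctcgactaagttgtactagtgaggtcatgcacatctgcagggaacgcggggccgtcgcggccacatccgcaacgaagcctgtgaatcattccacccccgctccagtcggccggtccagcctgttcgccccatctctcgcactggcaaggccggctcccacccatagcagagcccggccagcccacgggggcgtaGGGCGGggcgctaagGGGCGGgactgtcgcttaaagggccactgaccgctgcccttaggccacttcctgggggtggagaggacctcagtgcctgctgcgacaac

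The accessible point next to Trp53 was shared by all 6 libraries. Trp53 lies at 69580348 to 69591873 on the plus strand, with its tabled start site at 69580359. Wrap53, on the minus strand, reaches to 98 bp before the gene, at 69580250, where 1 of its tabled starts lies. The summit next to both genes was at 69579355, 69579356 and 69579362 in AD/- libraries 1, 2 and 3 and at 69579356, 69579411 and 69579362 in null libraries 1, 2 and 3. These positions lie 106 to 162 bp upstream of the Wrap53 start at 69579249, inside the capitals of the Wrap53 sequence. They lie 839 to 895 bp downstream of the Wrap53 start at 69580250. The ranges of the genotypes overlap. The score percentiles were 84.1, 85.6 and 79.9 in AD/- and 86.5, 83.4 and 84.0 in null.

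The Trp53 start itself lies 948 to 1004 bp from that same summit, so the 1 kb limit falls within the spread of positions. A summit within 1 kb was counted for Trp53 in AD/- library 3 and null libraries 2 and 3 and missed in the other 3 by 4 bp or less. The 300 bases around the Trp53 start held no summit in any library. Inside the body of Trp53 there were 2 regions, each in 1 null library, at percentiles of 0.917 and 14.0. The sources used here do not describe how either allele changes the gene, and its part in these values was not tested.

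Within 50 kb of Trp53 there were 11 regions, and 7 of them were present in all 6 libraries. The region in Dnah2, which encodes an axonemal dynein heavy chain, had its summit at 69546849 in every library, with percentiles from 75.3 to 81.7. The region near an end of Atp1b2, a subunit of the sodium pump, had percentiles of 89.8, 89.2 and 86.5 in AD/- and 86.2, 89.5 and 89.6 in null. The region at the start of Fxr2, an RNA-binding protein related to the fragile X protein, had percentiles of 98.9, 99.6 and 99.2 in AD/- and 99.6, 99.3 and 99.4 in null. Scores at these 3 regions were therefore high in both genotypes, with overlapping ranges. Shared regions at Efnb3, an ephrin ligand, inside Shbg, the sex hormone-binding globulin, and inside Wrap53 ranked lower, down to a percentile of 7.62. Of the 4 remaining regions, 1 inside Wrap53 lacked only AD/- library 3, and 3 were in a single null library.

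Presence per library was much alike inside the interval and on the rest of chromosome 11, which held 4371 regions. In AD/- libraries 1, 2 and 3, 78.4%, 83.5% and 62.0% of the interval's regions were present, against 75.3%, 82.3% and 62.6% of those on the rest of the chromosome. In null libraries 1, 2 and 3 the shares were 75.0%, 78.2% and 80.1% against 74.3%, 76.7% and 79.3%. AD/- library 3 was low in both places, and it was the only library with the lower share inside the interval.

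The interval exceeded the rest by 1.08 percentage points on average over the 6 libraries (SD 1.19), in 5 of 6 libraries (exact two-sided sign-flip permutation p = 0.0625, adjusted 0.146 over 7 tests, smallest possible 0.03125). The excess was 1.21 ± 1.83 points in AD/- and 0.954 ± 0.419 points in null (SD, n = 3 each), which did not differ beyond the spread of the libraries (exact two-sided permutation p = 0.8, adjusted 0.9, smallest possible 0.1). With 5 Mb on each side of Trp53 the excess over the 6 libraries was 0.0148 points. The AD/- minus null difference in the excess, 0.253 points in the full interval, was -1.24 points with 5 Mb on each side and -0.709 points without AD/- library 1.

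Counts of summits did not separate the genotypes. The interval held 865, 922 and 685 summits in the AD/- libraries and 830, 863 and 884 in the null libraries (824 ± 124 against 859 ± 27.2, SD, n = 3 each, exact two-sided permutation p = 0.9, adjusted 0.9). The 2 groups overlap, and AD/- holds both the highest and the lowest library. As a share of each library's chromosome 11 list, the interval took 20.8%, 20.4% and 19.98% in AD/- and 20.3%, 20.4% and 20.2% in null (exact two-sided permutation p = 0.8, adjusted 0.9). Without AD/- library 3, the mean count was 34.5 summits higher in AD/- than in null.

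The interval was denser in summits than the rest of the chromosome in every library. It held 43.2, 46.1 and 34.2 summits per Mb in AD/- and 41.5, 43.1 and 44.2 in null, while the rest held 33.4, 36.5 and 27.8 in AD/- and 33.0, 34.0 and 35.3 in null. The mean difference was 8.72 ± 1.21 per Mb (SD, n = 6), higher in 6 of 6 libraries (exact two-sided sign-flip permutation p = 0.03125, the smallest possible, adjusted 0.109). This excess depends on the width chosen: with 5 Mb on each side of Trp53 the difference was -2.55 per Mb, with 2 Mb on each side it was 24.3 per Mb, and against the other autosomes it was 20.3 per Mb. Its summits also lay more often within 1 kb of a start, 22.6% to 28.2% against 17.4% to 21.8%, by 5.12 ± 0.738 points in 6 of 6 libraries (exact two-sided sign-flip permutation p = 0.03125, adjusted 0.109). These p-values speak only for agreement between libraries at the same loci, and not for the interval against other intervals. AD/- library 3, with the shortest list, had the highest share at starts in both places. Neither difference passed 0.05 after adjustment, and neither could have. Even with all the tests adjusted together at their smallest possible p-values, the adjusted values would stay above 0.05. The adjusted values therefore cannot decide whether these differences hold.

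**Figure D1:**
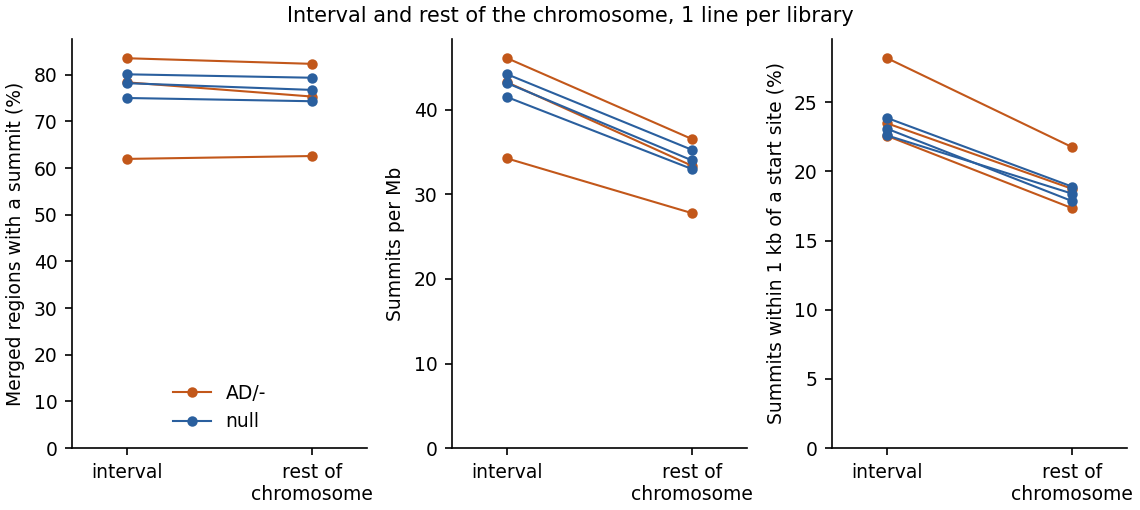
Share of merged regions with a summit (left), summits per Mb (middle) and share of summits within 1 kb of a start site (right) in the interval around Trp53 and on the rest of chromosome 11, with 1 line per library coloured by genotype. Presence hardly moves between the 2 places in any library, density and the share at starts are higher in the interval in all 6, and the lowest presence line is AD/- library 3.

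Most of the interval's regions were shared. Of the 1104, 612 were present in all 6 libraries (55.4%, 95% Wilson interval 52.5 to 58.3, counting error only), against 54.7% on the rest of chromosome 11 and 52.1% over all chromosomes tested. A single library held 163 (14.8%), against 15.2% on the rest of the chromosome. AD/- library 2, with the longest list, held 51 of these 163 and AD/- library 3 held 13. Regions in all 6 libraries had a median percentile of 69.9, against 7.33 for regions of a single library.

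The sets of regions in pairs of libraries were compared by the Jaccard index, the shared regions over all regions of either library. It averaged 0.780 over the 6 pairs of the same genotype and 0.773 over the 9 mixed pairs. Null pairs ranged from 0.812 to 0.839, and mixed pairs reached 0.824 (AD/- library 2 with null library 3). Each null library was on average closer to the other null libraries than to the AD/- libraries, for instance 0.826 against 0.775 for null library 2. Each AD/- library was on average closer to the null libraries than to the other AD/- libraries, for instance 0.806 against 0.766 for AD/- library 1. For AD/- libraries 1 and 2 this order came from their pairs with AD/- library 3, which had the shortest list, at 0.717 and 0.685. With each other they had 0.814, above their averages of 0.806 and 0.799 with the null libraries. AD/- library 3 had 0.691 to 0.730 with the null libraries. These averages lay in the same order on the rest of chromosome 11, where AD/- library 1 had 0.797 against 0.762 and null library 2 had 0.804 against 0.769. Pairs share libraries, so these values are a description without a test.

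Along the interval, regions came in dense and empty stretches. The 1 Mb before and the 1 Mb after the Trp53 start held 95 and 96 regions, with 33 and 67 protein-coding genes. The 1 Mb stretches from 4 to 3 and from 3 to 2 Mb before Trp53 held 8 and 6 regions. The longest stretch without any region was 1163463 bp, touching Zkscan6, Dnah9, Shisa6 and Pirt. Another of 1094544 bp covered the olfactory receptor cluster, and 1 of 486585 bp the skeletal myosin genes Myh1, Myh2, Myh4, Myh8 and Myh13. Their neighbour Myh3 had 3 regions, 1 of them in all 6 libraries. A stretch of 466840 bp held only Nlrp1b, an inflammasome sensor. The median distance between neighbouring regions was 7186 bp, against 6277 bp on the rest of the chromosome.

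**Figure D2:**
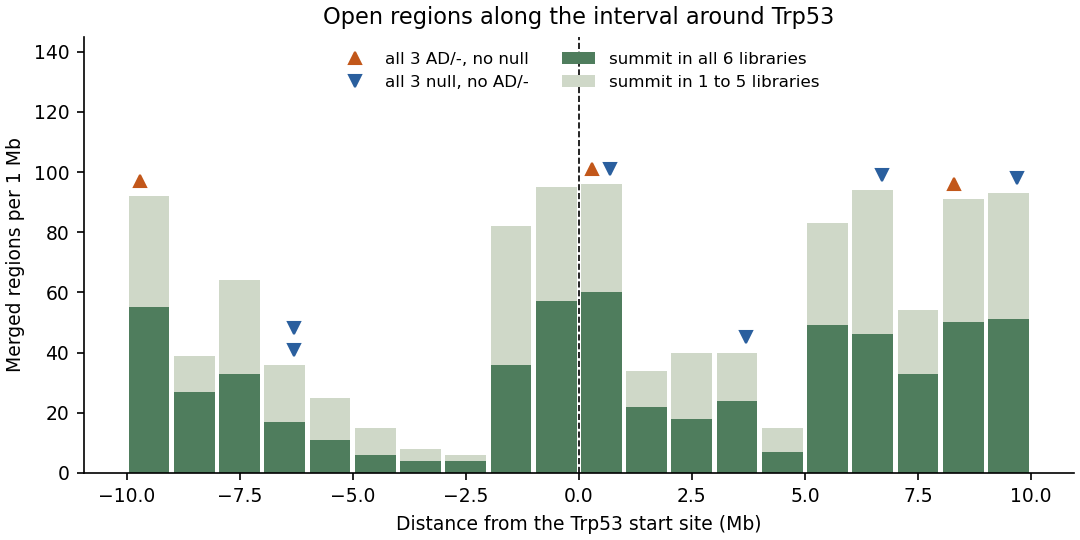
Merged regions per 1 Mb of distance from the Trp53 start site, split into those with a summit in all 6 libraries and in 1 to 5, with triangles for the 3 regions of AD/- alone and the 6 of null alone. The 2 stretches next to Trp53 hold 95 and 96 regions, the stretches from 4 to 2 Mb before it hold 8 and 6, and the triangles are spread along the interval.

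The highest-scoring shared regions sat beside annotated gene ends. The region between Mis12, a kinetochore protein, and Derl2, a factor of protein disposal from the endoplasmic reticulum, was above the 99th percentile in all 6 libraries. Regions at Usp22, a deubiquitinase of the SAGA complex, and at Eif5a, a translation factor, were also above the 99th percentile in all 6 libraries. So were those at Ndel1, a dynein regulator, and at the uncharacterised gene 0610010K14Rik. Ube2g1, a ubiquitin-conjugating enzyme, Pafah1b1, a dynein regulator, Gid4, a substrate receptor of a ubiquitin ligase, and Ift20, a cilium transport protein, had percentiles of 98.2 or more in every library.

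Of 395 protein-coding genes in the interval, 319 had a tabled start site. A summit lay within 1 kb of a start in all 6 libraries for 203 of them (63.6%), in none for 100 (31.3%) and in 1 to 5 for 16. On the rest of chromosome 11 the share with a summit in all 6 was 63.1%. Start summits were found for 66.5%, 66.8% and 64.9% of genes in the AD/- libraries and 65.5%, 65.5% and 66.5% in the null libraries, with overlapping ranges (66.0 ± 1.01% against 65.8 ± 0.543%, SD, n = 3 each, exact two-sided permutation p = 0.9, adjusted 0.9). A start summit in all 3 libraries of 1 genotype with 0 in the other was found for no gene of the interval. Over all 17274 genes with a tabled start, 0.0289% did so for AD/- and 0.0174% for null, so 0 of 319 is near the background.

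Of 10 genes tied to p53 or known as tumour suppressors, 9 had a start summit in all 6 libraries, and the other was Trp53 with its summit at the edge of the window. Mybbp1a, a nucleolar partner of p53 and MYB, had its nearest summit 32 bp from a start in every library, with percentiles of 88.2, 90.5 and 86.2 in AD/- and 89.9, 91.3 and 89.9 in null. Hic1, a repressor that is a p53 target, had percentiles of 59.0, 66.7 and 47.3 in AD/- and 55.0, 61.5 and 64.5 in null. Neither gene showed genotype ranges apart from each other. The other 7 were Wrap53, Xaf1, an inhibitor of the caspase blocker XIAP, Nf1, which switches off Ras, Map2k4, a stress kinase, Ncor1, a corepressor, Alox12, a lipoxygenase, and Trp53i13, a p53-induced gene.

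Of 16 T cell and lymphoid genes with a tabled start, 12 had a start summit in all 6 libraries and 4 in none. Those with a summit included Pfn1, an actin-binding protein, Crk, a signalling adaptor, Pik3r5, a subunit of a phosphoinositide kinase, and Lgals9, a galectin. The 4 without were Tnfsf13 and Tnfrsf13b, a ligand and a receptor that act on B cells, P2rx1, an ATP-gated channel, and Spns2, a sphingosine-1-phosphate transporter known from blood vessels. All 17 core machinery genes with a tabled start had a summit in all 6 libraries. Polr2a, the largest subunit of RNA polymerase II, had one 3 bp from a start in every library, with percentiles of 94.5, 95.1 and 93.7 in AD/- and 95.6, 94.2 and 95.5 in null. None of 28 olfactory receptor genes with a tabled start had a summit there in any library.

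Of 17 tissue-restricted genes, 15 had none, among them the skeletal myosins and Trpv1, the heat and capsaicin channel. Chrnb1, a subunit of the muscle acetylcholine receptor, had one in all 6 libraries, 445 bp from a start. Slc6a4, the serotonin transporter, had one in AD/- library 2 and null library 3. Of 6 myeloid genes, Adora2b, an adenosine receptor, had a start summit in all 6 libraries, Nlrp1a, an inflammasome sensor, in AD/- libraries 1 and 2, and 4 in none. Of 16 metabolic genes 12 had one in all 6, including Srebf1, a regulator of lipid synthesis, and Acadvl, a fatty acid oxidation enzyme. Pipox, an enzyme of pipecolic acid and sarcosine breakdown, lacked one in AD/- library 3 and null library 2, and Eno3, Alox12b and Pemt lacked one in all 6. Per1, a clock gene, had one in all 6 and Hes7, a somite clock repressor, had none.

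**Figure D3:**
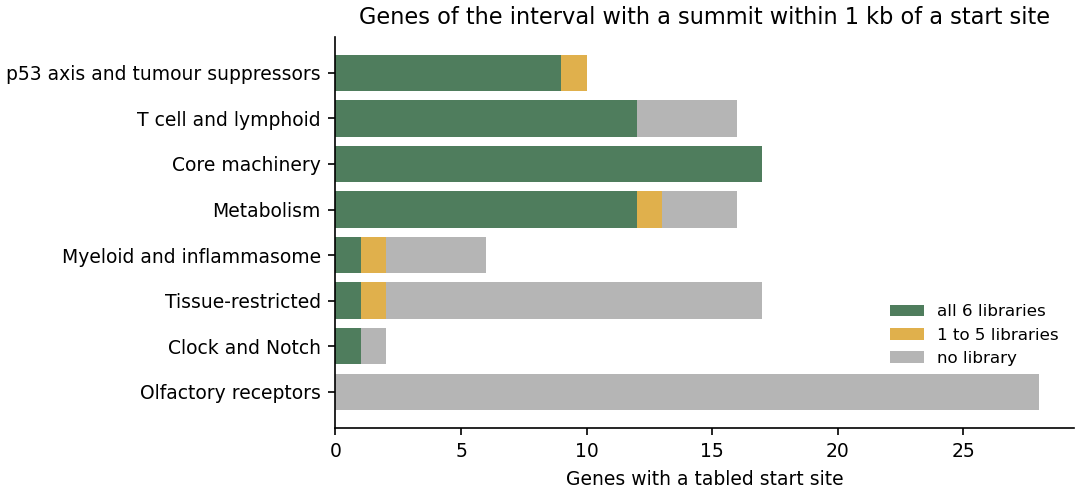
Number of genes of the interval with a tabled start site in each of 8 lists, coloured by whether a summit lay within 1 kb of a start in all 6 libraries, in 1 to 5 or in none. All 17 core machinery genes are in the first class, none of the 28 olfactory receptors has a summit at its start, and few genes vary between libraries.

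Promoters with a summit within 1 kb of their start differed in letters from those without. The summit may lie outside the 300 bases whose letters were counted. That was so for the Wrap53 start at 69580250, with summits 839 to 895 bp away. In the interval, the 244 promoters with a summit in all 6 libraries had a median GC content of 62.3% and 23 CpG dinucleotides per 300 bases, and the 127 with none had 50.7% and 3. The core letters of ETS sites (CCGGAA, either strand) were in 31.97% against 6.30%, the GC box in 71.7% against 22.0% and the TATA letters in 2.87% against 19.7%. Over all tabled promoters the shares were 18.9%, 46.7% and 12.7%. RUNX letters (TGTGGT) were in 11.9% against 21.3%, and in 14.7% over all tabled promoters. RUNX and TATA letters were thus rarer where a summit lay within 1 kb of the start, and ETS and GC box letters more common. The same order held over all tabled promoters with a summit in all 6 libraries against those with none. There ETS letters were in 30.2% against 5.64% and the GC box in 68.4% against 17.8%. TATA letters were in 5.85% against 21.9% and RUNX letters in 11.8% against 18.7%, so the contrast was not particular to the interval. Motifs differ in base composition, as the promoter classes do, and no test was made.

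The interval has 27 microRNA genes in the reference table. A summit lay within 1 kb in all 6 libraries for 8 and in none for 16. No share for microRNA genes elsewhere is given here, so these counts have no background. Some microRNA genes lie inside other genes, as Mir5100 does in Mief2 and Mir423 in Nsrp1. Summits of the surrounding gene were not told apart. Mir132 and Mir212, a neighbouring pair, had a summit 33 bp and 171 bp away in 5 of 6 libraries, and 38 bp and 166 bp away in null library 3. Mir744, Mir6924 and Mir3971 varied. Mir6924 lies inside Acap1, the neighbour of Kctd11. Its nearest summit was 1126, 1138 and 1140 bp away in the AD/- libraries and 521, 533 and 1009 bp away in the null libraries. They are the same summits as those of the Kctd11 region described below, and not a separate difference.

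Few regions belonged to one genotype alone. In the interval, 3 regions (0.272%) were of AD/- alone, which means 3 of 3 AD/- and 0 of 3 null libraries, against 0.252% on the rest of chromosome 11 and 0.179% over all 73702 regions. In the other direction 6 regions (0.543%) were of null alone, against 0.480% on the rest and 0.418% over all. The 95% Wilson intervals for the interval, 0.0925% to 0.796% and 0.249% to 1.18%, hold the background shares. With 3 libraries against 3, no single region can pass a test.

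The 3 AD/- regions scored low, and 2 lay close to null summits. The region inside Tom1l2, which encodes an endosomal trafficking protein, had percentiles of 17.6, 28.9 and 4.08 in the AD/- libraries, and the nearest null summit was 723 bp away. The region near Taok1, a stress kinase, had 7.83, 16.8 and 28.4, with a null summit 850 bp away. The region inside Cldn7, which encodes a tight junction protein, had 4.07, 15.9 and 5.77, with the nearest null summit 13876 bp away, and lay 386 kb from Trp53. Ranks at these regions were low and uneven among the AD/- libraries.

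Of the 6 null regions, 2 lay 8679 bp apart inside Trim16, which encodes a ubiquitin ligase. The first had percentiles of 35.5, 43.7 and 52.4 in null libraries 1, 2 and 3, with its summit at 62824487 in all 3. The second had 26.7, 49.3 and 51.1, with its summit at 62833166 in all 3. Within 15 kb, 2 more regions were in 2 null libraries and 0 AD/- libraries, and 1 was in 3 null libraries and 1 AD/- library. The first pattern was that of 2.08% of the interval's regions, against 1.95% over all chromosomes. The second was that of 1.45%, against 1.85% over all chromosomes. The regions that start at 62820086 and 62846821, before and after the Trim16 pair, were in all 6.

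The other 4 null regions each lay at a different gene. The region near Alox15, a lipoxygenase gene, had percentiles of 37.8, 34.0 and 17.8, and that inside Nlk, a kinase gene, had 35.0, 37.7 and 28.0. The region near Atp2a3, a calcium pump of lymphoid cells, had 2.16, 26.5 and 11.7. The region near Rph3al, a gene of exocytosis, had 16.3, 13.8 and 23.2. The nearest AD/- summit was 2447 to 11682 bp away at these 4. Null-leaning neighbours within 15 kb were not particular to Trim16. Near the Rph3al region, the region that starts at 75837708 was in 2 null and 0 AD/- libraries. Those that start at 75817220 and 75826905 were each in 1 null and 0 AD/- libraries, a pattern of 6.34% of the interval's regions and 7.92% over all. With a single library left out, fewer libraries have to agree, so a region of one genotype alone is easier to reach. The counts were then between 5 and 15 for AD/- and between 6 and 17 for null. The highest AD/- count was that without AD/- library 3 and the highest null count that without null library 1. No share over all regions is given for these counts, so they have no background here.

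Where all libraries shared a region, the exact position of its summit could still differ. There were 610 regions in the interval with exactly 1 summit in each library. The 6 positions spanned a median of 45 bp, against 48 bp on the rest of chromosome 11. In 35 regions (5.74%) the AD/- and null positions did not overlap, against 6.66% on the rest of chromosome 11 and 6.09% over the 38015 such regions of all chromosomes, so this share is near the background. AD/- lay at lower coordinates in 18 of the 35 and at higher ones in 17.

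Large gaps between the genotypes were few and lay close to Trp53. In 4 of the 610 regions (0.656%, Wilson interval 0.255 to 1.67) every AD/- position was at least 50 bp from every null position, against 0.422% on the rest of chromosome 11 and 0.371% over all chromosomes. All 4 were within 0.5 Mb of the Trp53 start, where 70 regions were measured (5.71%), and the 540 regions farther out held 0. The limit of 50 bp and the distance of 0.5 Mb were chosen after the values were seen, so no test was made. Both genotypes have the same mixed background label, and the labels do not say which strain's sequence surrounds each p53 allele, so its part in these gaps was not tested. Over 1990 windows of 1 Mb on all chromosomes, 1855 held no such region, 131 held 1 and 3 held 2, while the window from 69 to 70 Mb of chromosome 11, with Trp53 in it, held 4 of 73 (5.48%). The 3 windows with 2 held them among 20, 29 and 49 measured regions. As a share, 33 other windows reached that of the Trp53 window, 31 of them with a single such region, and none of the 33 had more than 29 regions measured. With 1 library left out, where fewer positions make a gap easier to reach, the interval held 5 to 11 and that window 3 to 5. The interval's share was then below that of all chromosomes without AD/- library 3 (0.994% against 1.10%) and without null library 1 (0.808% against 0.845%), and above it without each of the other 4. Without null library 3 the window held 3, and 6 other windows held as many or more. Without AD/- library 2, AD/- library 3, null library 1 or null library 2 it held 4, and 1 other window did too.

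**Figure D4:**
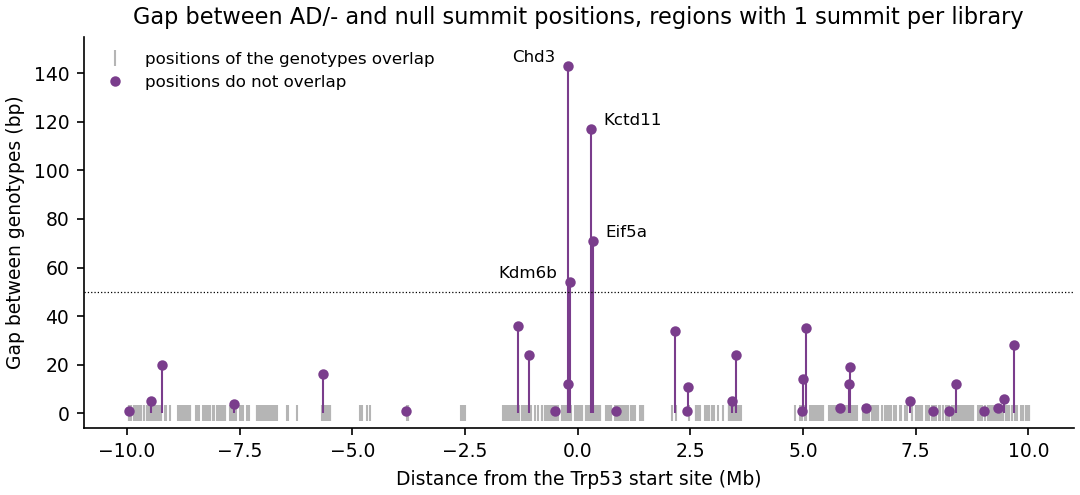
Gap in bp between the AD/- and the null summit positions of a region against its distance from the Trp53 start site, for the 610 regions of the interval with exactly 1 summit in each library. Grey ticks are regions whose positions overlap, purple points are the 35 where they do not, the dotted line is at 50 bp, and the 4 points above it all lie within 0.5 Mb of Trp53.

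At Kdm6b, which encodes a demethylase of histone H3 lysine 27, the summit was at 69409703 in all 3 AD/- libraries and at 69409649 in all 3 null libraries. The region lies inside the gene, 171 kb before the Trp53 start, and its percentiles were 85.7, 85.2 and 79.4 in AD/- and 85.2, 85.4 and 85.3 in null. Positions did not vary within a genotype and lay 54 bp apart between genotypes, while the ranks overlapped.

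At Eif5a, a translation factor and among the highest-scoring regions of the interval, the summit was at 69921557 in all 3 AD/- libraries. In null libraries 1, 2 and 3 it was at 69921483, 69921483 and 69921486. The gap was 71 bp, and the percentiles were 99.7, 99.5 and 99.8 in AD/- and 99.8, 99.9 and 99.3 in null. In the direction of the gene the AD/- summit lay 171 bp before the start site at 69921386, which is 1 of several tabled for Eif5a, and the null summits 97 to 100 bp before it. The capitals of the Eif5a sequence mark the stretch between them, which holds a run of 18 A. The region lies 341 kb after the Trp53 start.

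At Chd3, a subunit of a nucleosome remodelling and deacetylase complex, the summits were at 69368763, 69368992 and 69368866 in AD/- and at 69369135, 69369181 and 69369181 in null. The gap was 143 bp, with more spread within AD/- (229 bp) than within null (46 bp). The percentiles were 31.4, 49.0 and 29.9 in AD/- and 38.6, 32.5 and 44.7 in null. The region lies 211 kb before Trp53.

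At Kctd11, an adaptor of a ubiquitin ligase, the summits were at 69880906, 69880894 and 69880892 in AD/- and at 69881511, 69881499 and 69881023 in null. AD/- positions lay within 14 bp of each other, and null library 3 lay 117 bp from the nearest AD/- summit, closer to AD/- than to the other null libraries. The 300 bases of the Kctd11 promoter held the null library 3 summit, 38 bp before the start site at 69880985, and none of the other 5. AD/- summits lay 79 to 93 bp after that start, and those of null libraries 1 and 2 lay 514 to 526 bp before it. The region lies 301 kb after Trp53.

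**Figure D5:**
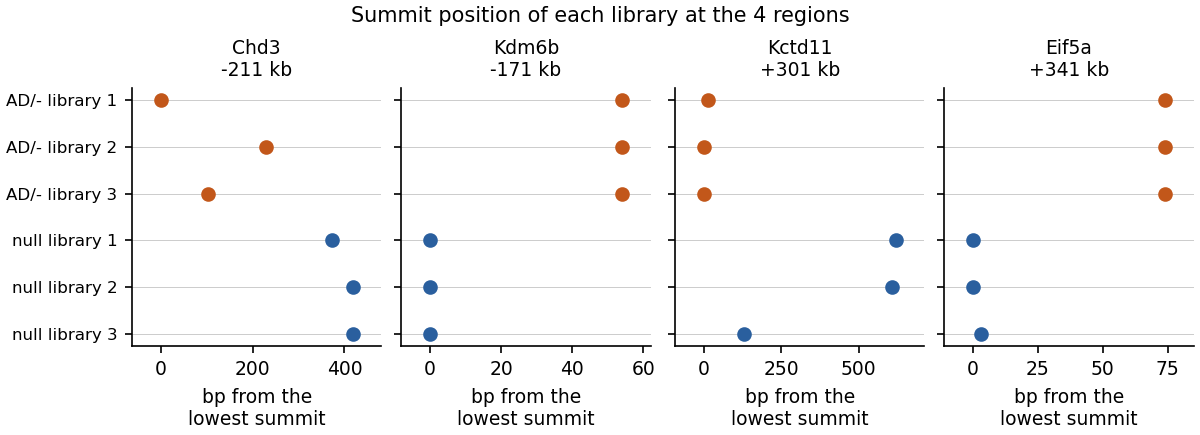
Summit position of each library, in bp from the lowest of the 6, at Chd3, Kdm6b, Kctd11 and Eif5a, with the distance from the Trp53 start site above each panel (minus is before the gene). Every AD/- point lies apart from every null point at all 4, with no spread within a genotype at Kdm6b and with null library 3 nearest to AD/- at Kctd11.

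The next largest gaps of the interval were 36 bp at Ntn1, a guidance protein, 35 bp at Ccdc92b, 34 bp at Wscd1, 28 bp at Wsb1, a ubiquitin ligase subunit, and 24 bp at Pik3r5 and Ncbp3. These lay more than 1 Mb from Trp53. At a limit of 20 bp, 11 of 610 regions of the interval passed (1.80%), against 1.61% over all chromosomes, and 2 other windows of 1 Mb held as many as the 4 of the Trp53 window. The direction was mixed among the 4, with AD/- at lower coordinates at Chd3 and Kctd11 and at higher ones at Kdm6b and Eif5a. Between those genes, the regions at Wrap53, Atp1b2, Dnah2 and Fxr2 had overlapping positions.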

How the data were processed

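The authors deposited 1 list of summits for each library, so peaks were called per library. Each score is a −log10 q-value in the deposited lists, read so because scores begin at 1.30 or more, which corresponds to a q-value of 0.05. Per the submitters' processing notes, the tools were MACS2 2.1.2, Picard 2.9.0, Bowtie2 2.3.4.2 and Trim Galore 0.4.5, and the build was GRCm38. The sources used here do not give their roles, settings, any transposase shift or masking. Peak widths were not analysed here.

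Regions were made with Python 3.11.15 and pandas 2.3.3. Genes, microRNAs and promoter sequences came from RefSeq tables on GRCm38; 76 interval genes had no tabled start. The chromosome's span ran from its first to its last summit. Genotypes were compared by exact permutation of 20 relabellings, and interval with rest by 64 sign flips over libraries, with Benjamini-Hochberg adjustment over the 7 tests. Groups came from the genotype label.

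Named were Trp53 and regions within 50 kb of it, regions of one genotype alone, the 10 highest shared regions, list members that vary and examples of each list. Regions with the largest summit gaps were named after their values were seen. The interval, the lists and these rules were chosen with earlier results of these data known. Alternatives were extension, score, equal-length lists, interval width, start window, other chromosomes as the rest, and leaving out each library. Summit merging was tested on simulated data.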

Additional observations from a re-analysis of the deposited data

How the results depend on the processing

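Of 123 recomputed values, 73 kept their direction and side of 0.05 or stayed within 1.5 times the main count. For the genotype tests the side of 0.05 could not change, because their smallest possible exact permutation p was 0.1. Only direction was compared there, so the 73 overstate how stable the results were. Density and the share at starts had an exact permutation p = 0.0625 with any 1 library left out, the smallest that 5 libraries allow, with differences of 8.50 to 9.18 per Mb and 4.86 to 5.30 points. Density turned to -2.55 per Mb (exact permutation p = 0.03125) for 5 Mb on each side, and was 24.3 per Mb for 2 Mb and 20.3 per Mb against the other autosomes. Presence against the other autosomes was 2.61 points higher (exact permutation p = 0.03125), and for 5 Mb on each side 0.0148 points higher (exact permutation p = 1.0). It was 0.660 to 1.42 points higher with 1 library left out.

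Of the genotype differences, none of which passed a test, presence turned to -1.24 and -0.0248 points for 5 and 2 Mb on each side and ranged from -0.709 to 1.17 with 1 library left out. The share of the chromosome 11 list turned to -0.117 points for 5 Mb and ranged from -0.163 to 0.240. The summit count ranged from -84 to 34.5. The share of genes with a start summit turned to -0.104 points at a score of at least 5, -0.169 at either annotated end and 0 for 2 Mb, and ranged from -0.157 to 0.784. The cause was not tested.

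Regions of AD/- alone fell from 3 to 1 with 500 bp extension, a score of at least 5, 5 Mb, 2 Mb or no other-genotype summit within 2 kb, and rose to 5 with equal-length lists and to 5 to 15 with 1 library left out. Those of null alone fell from 6 to 2 and 1 for 5 and 2 Mb, where the interval holds fewer regions, and ranged from 6 to 17 with 1 library left out. Leaving out a library makes either pattern easier to reach, since fewer libraries have to agree. Summit gaps of at least 50 bp, an alternative set chosen after seeing the data, counted 11 at 20 bp, 2 at 100 bp, 3 at extensions of 100 or 500 bp, 4 at the best-scoring summit, a score of at least 5 or equal-length lists, and 5 to 11 with 1 library left out. The window with Trp53 then held 3 to 5; without null library 3 it held 3, and 6 other windows held as many or more, up to 5. No paired analysis was possible because the labels carry no replicate numbers. Read depth is unknown, which limits every absence: a region without a summit in a list may be below the caller's threshold.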
